A study of Nicotiana tabacum with 12 samples.

Results

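In tobacco (Nicotiana tabacum) roots, 123 gene models differed in one direction between CR and WTR roots and again in that direction between TCR and TWTR roots, while their differences between libraries with and without the leading T in the code stayed within set limits. Of these, 104 were higher in CR and TCR and 19 were lower, out of 15588 gene models in the level range considered and 25273 in the deposited table. TCR, TWTR, CR and WTR are the codes in the sample titles, each with 3 RNA-sequencing libraries, and the titles do not spell them out. Every sample carries one protocol text, in which a tobacco mutant of NtLHT1 was kept hydroponically in LN solution for 15 days, so no genotype, treatment or nitrogen supply was assigned to any single code. The same light regime and seedling fertilizer were given for all groups, the plants' age and the type of mutant allele were not given, and the replicates are not said to be separate plants, so the spread between them may be technical.

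The values are FPKM, fragments scaled by transcript length and by the mapped total of the library, and differences are between group means of log2(FPKM + 1), which understates the change of low models. A model was counted when its mean over the 12 libraries was at least 5 and under 1000 FPKM and when its differences in both pairs, CR against WTR and TCR against TWTR, had one sign and were at least 0.5 in size. The replicate values also had to show no overlap in either pair of groups, TWTR minus WTR had to lie between -0.6 and 0.6, and TCR minus CR between -1 and 1. The members were thus chosen by the FPKM values of all 12 libraries and by all 4 differences, so the values below describe the models chosen and none of these differences is tested. Of the models in the level range, 0.667% met the whole rule on the higher side and 0.122% on the lower side.

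LHT1 proteins are plasma membrane carriers that import amino acids, first described in Arabidopsis as lysine and histidine transporters and known there for uptake of amino acids by roots. Roots take up nitrogen as nitrate, ammonium and amino acids, and many root transcripts are known to respond when nitrogen is scarce. Tobacco is an allotetraploid, so many genes exist as near-identical copies from both parental genomes, and reads from such copies may be split between models. The identifiers in the table carry no gene names, and 0 of 25273 were found in the RefSeq gene table of the tobacco assembly ASM71507v2. The functions of the models described here are therefore not given, and NtLHT1 itself was not analysed here.

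Depth could be read only in relative terms, because FPKM holds no fragment totals. With CR replicate 1 set to 1, CR replicate 2 had a relative depth of 1.78 and the other 10 libraries lay between 0.917 and 1.14. Leaving out CR replicate 2 gave 103 models on the higher side and 19 on the lower side.

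Models were counted in each pair of groups and then in both, a count that cannot exceed either. CR exceeded WTR by at least 0.5 without overlap in 2067 models (13.3% of those in range), and TCR exceeded TWTR in this way in 556 (3.57%). Both held in 209 models, which is 10.1% of the first list and 37.6% of the second, and 149 models of the first list passed in the opposite direction in TCR against TWTR. CR was below WTR in this way in 1134 models (7.27%) and TCR below TWTR in 482 (3.09%), and 49 passed in both, 4.32% of the first list and 10.2% of the second. Another 92 models lower in CR than WTR were higher in TCR than TWTR. The limits on the differences with T then removed 105 of the 209 higher models, 40 of them by TWTR minus WTR alone, 15 by TCR minus CR alone and 50 by both. They removed 30 of the 49 lower models.

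**Figure D1:**
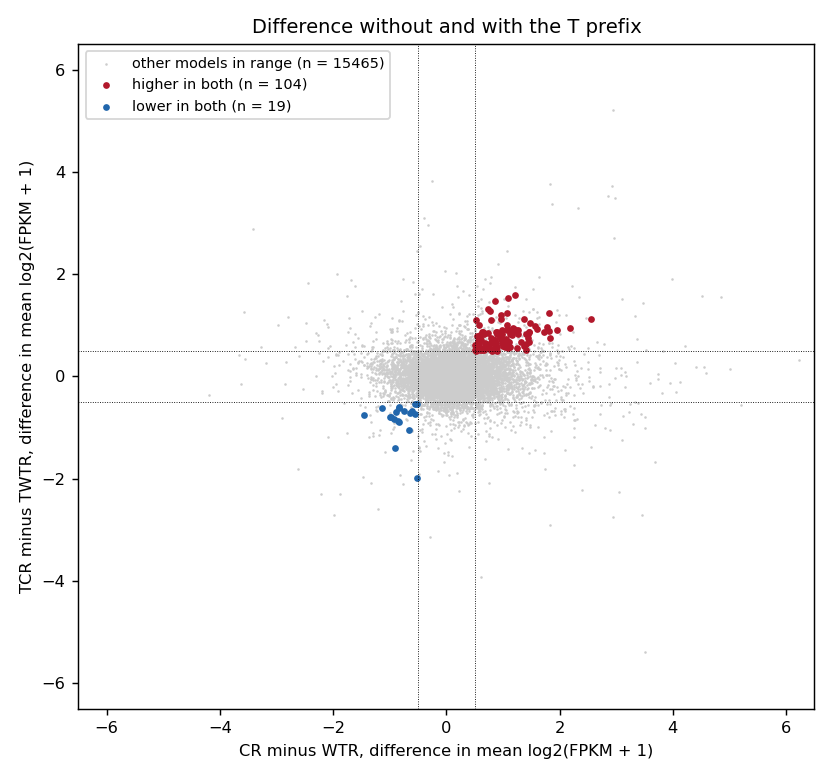
Each point is a gene model with a mean of 5 to under 1000 FPKM; the horizontal axis is CR minus WTR and the vertical axis TCR minus TWTR, both as differences in mean log2(FPKM + 1), with dotted lines at 0.5 and -0.5. The 104 models higher in both (red) and the 19 lower in both (blue) lie in opposite corners by construction, and the 2067 models higher in CR than WTR lie on both sides of 0 on the vertical axis, with a median of 0.03.

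The median TCR minus TWTR difference of the 2067 models higher in CR than WTR was 0.03, and it was 0.06 for the 1134 lower ones. Members on either side had to reach the size threshold of the rule in both differences. Their medians are therefore larger in size by construction and are given as a description only. The 104 higher members had a median CR minus WTR difference of 0.97 (quartiles 0.73 and 1.23, highest 2.55). Their median TCR minus TWTR difference was 0.76 (quartiles 0.60 and 0.91, highest 1.60). The ratios of their group mean FPKM, taken model by model, had medians of 2.05-fold for CR over WTR and 1.80-fold for TCR over TWTR. Among the 19 lower members the median differences were -0.84 (lowest -1.46) without T and -0.73 (lowest -1.99) with T. Their ratios of group mean FPKM, taken model by model, had medians of 55.0% for CR to WTR and 57.1% for TCR to TWTR. The median standard error of a difference from the limma fit of all models was 0.136 for higher and 0.146 for lower members. Over all models in range the median differences were 0.02 without T and -0.02 with T.

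Members were mostly of modest abundance. The median 12-library mean was 14.1 FPKM on the higher side, with a range of 5.07 to 403, and 10.1 FPKM on the lower side, with a range of 5.09 to 151, beside 24.7 FPKM for all models in range. Means of 5 to 10 FPKM were found in 35 of the 104 higher members (33.7%) and 8 of the 19 lower members (42.1%), beside 19.1% of all models in range. The differences of the higher members were of similar size at each level. Their median CR minus WTR difference was 0.90 at 5 to 10 FPKM, 0.96 at 10 to 50 FPKM and 1.11 for the 20 members at 50 FPKM and more. No member was listed at 0 in any library, and all 104 higher members had group means of at least 5 FPKM in CR and TCR, while 23 were below 5 FPKM in TWTR and 17 in WTR. Among lower members 3 were below 5 FPKM in TCR and 5 in CR.

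The 2 higher members with the largest smaller-of-both differences were Nitab4.5_0003168g0010 and Nitab4.5_0000486g0240. Nitab4.5_0003168g0010 had 81.39, 67.76 and 71.02 FPKM in TCR, against 28.89, 37.53 and 25.75 FPKM in TWTR. In CR it had 105.36, 85.53 and 92.35 FPKM, against 27.61, 19.56 and 32.27 FPKM in WTR. Every CR and TCR library thus lay above every WTR and TWTR library, with log2 differences of 1.82 without T and 1.24 with T (SE 0.176 each). Nitab4.5_0000486g0240 stood at 9.89, 11.74 and 10.34 FPKM in TCR, against 2.52, 3.65 and 2.47 FPKM in TWTR. Its CR values were 8.71, 8.64 and 9.11 FPKM, against 3.31, 3.26 and 3.08 FPKM in WTR. This model also had the largest TCR minus TWTR difference on its side, 1.60, beside 1.22 for CR minus WTR (SE 0.124 each), and all its CR and TCR libraries lay above all WTR and TWTR libraries, while TWTR overlapped WTR.

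Nitab4.5_0000084g0380 had the largest CR minus WTR difference. It was at 18.36, 13.48 and 14.99 FPKM in CR, against 2.39, 1.58 and 1.54 FPKM in WTR. With T it was at 6.78, 6.93 and 8.27 FPKM in TCR, against 3.99, 2.66 and 2.01 FPKM in TWTR. TCR was therefore intermediate, above both WTR and TWTR and below CR in every library, and the log2 difference was 2.55 without T and 1.13 with T (SE 0.192 each). Its TCR minus CR difference of -0.99 was the closest to the limit of -1 on the higher side. With a pseudocount of 5 the differences of this low model were 1.59 and 0.65.

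Nitab4.5_0003638g0010 was the most abundant higher member and had the next largest CR minus WTR difference. Its FPKM was 857.41, 701.25 and 759.47 in CR, against 181.32, 148.65 and 177.60 in WTR. In TCR it reached 448.62, 434.50 and 436.25 FPKM, against 218.18, 243.90 and 224.56 FPKM in TWTR. The 4 groups were fully separated, in the order CR, TCR, TWTR and WTR from high to low, and the difference was 2.19 without T and 0.94 with T (SE 0.0863 each). Nitab4.5_0001238g0070, second in abundance, showed nearly equal differences. It had 277.96, 289.03 and 301.65 FPKM in TCR, against 160.11, 150.15 and 166.60 FPKM in TWTR. In CR it had 317.81, 295.91 and 322.81 FPKM, against 192.70, 145.83 and 173.31 FPKM in WTR. TCR overlapped CR and TWTR overlapped WTR, and the log2 differences were 0.88 without T and 0.86 with T (SE 0.0872 each).

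The spread between libraries was wider in Nitab4.5_0000005g0340, which had the second largest TCR minus TWTR difference. It was at 68.08, 104.31 and 83.35 FPKM in TCR, against 35.77, 44.26 and 14.39 FPKM in TWTR. Its CR libraries had 50.04, 74.80 and 49.24 FPKM, against 22.22, 27.25 and 29.46 FPKM in WTR. TWTR replicate 3 was the lowest of all 12 libraries for this model. The TCR minus TWTR difference was 1.53 (SE 0.361) and came to 1.06 without that library, while CR minus WTR was 1.09.

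**Figure D2:**
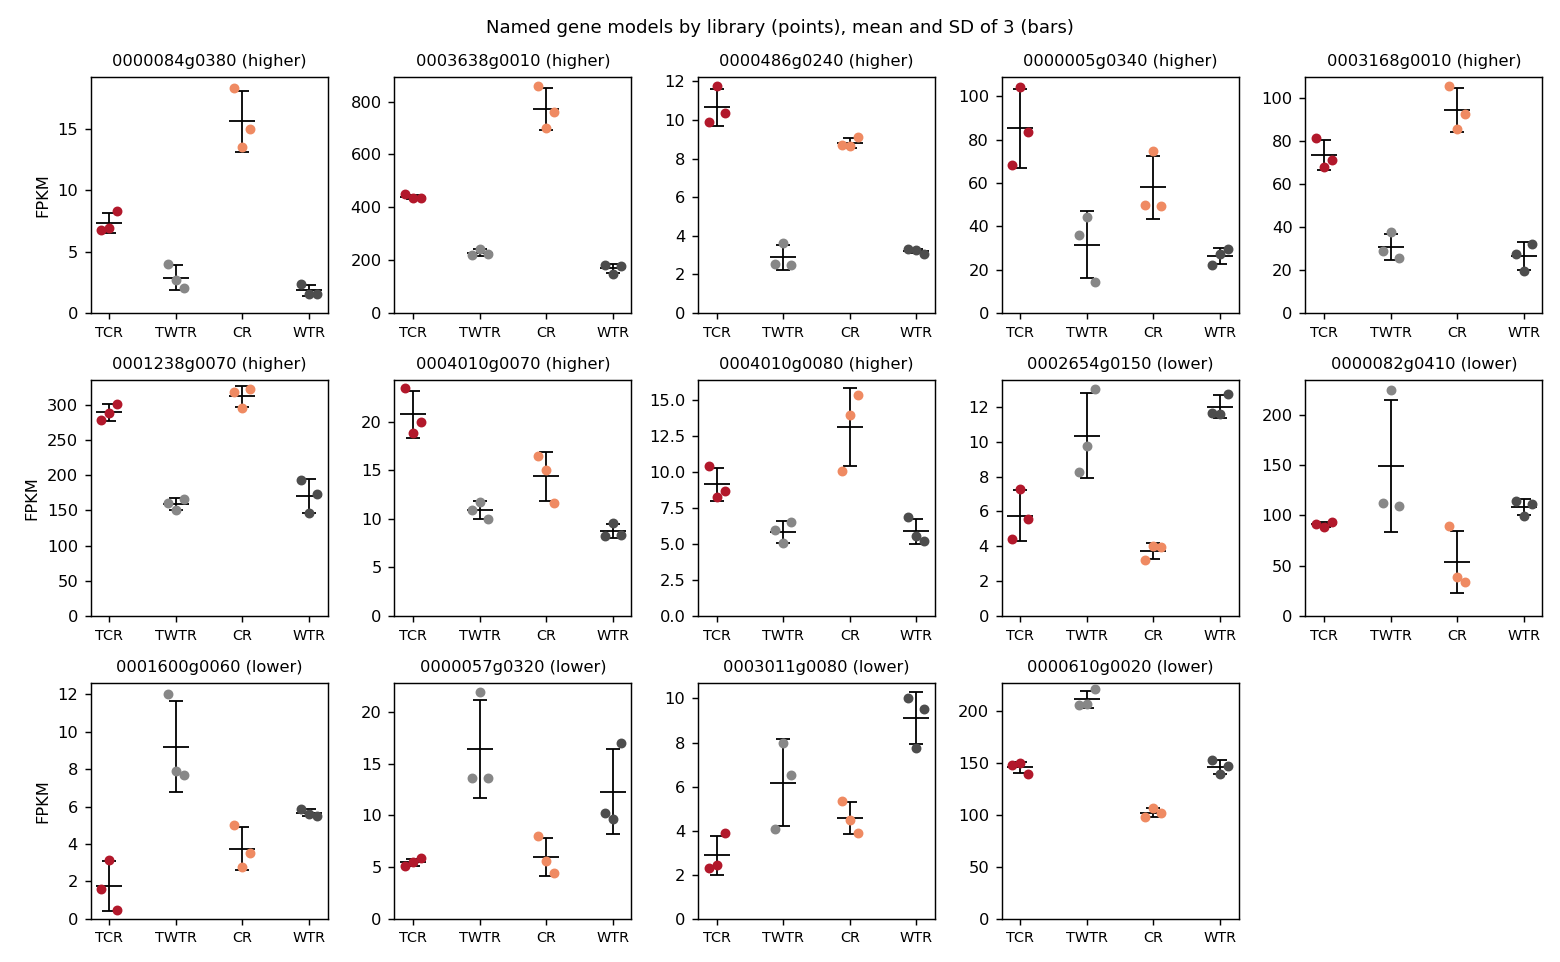
Deposited FPKM of the 14 named models (titles give the identifier without its shared prefix, and the side) in the 4 groups TCR, TWTR, CR and WTR; points are single libraries, bars the mean and SD of 3, and each vertical axis starts at 0. Nitab4.5_0003638g0010 shows 4 separated groups with CR at 773 ± 78.9 FPKM on top, while Nitab4.5_0001238g0070 shows 2 levels, with TCR and CR at 290 ± 11.9 and 312 ± 14.3 FPKM above TWTR and WTR at 159 ± 8.29 and 171 ± 23.6 FPKM (SD, n = 3 each).

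On the lower side Nitab4.5_0000057g0320 had the largest smaller-of-both difference. It had 5.13, 5.44 and 5.83 FPKM in TCR, against 13.63, 21.90 and 13.65 FPKM in TWTR. Its CR values were 7.98, 5.62 and 4.40 FPKM, against 10.19, 9.62 and 17.02 FPKM in WTR. All CR and TCR libraries lay below all WTR and TWTR libraries, and the log2 differences were -0.91 without T and -1.40 with T (SE 0.243 each). Nitab4.5_0003011g0080, next by this measure, had 2.32, 2.44 and 3.91 FPKM in TCR, against 4.06, 7.98 and 6.51 FPKM in TWTR. In CR it had 5.34, 4.49 and 3.88 FPKM, against 10.03, 7.77 and 9.52 FPKM in WTR. TCR replicate 3 and TWTR replicate 1 lay close together, 2 CR libraries exceeded the lowest TWTR library, and the log2 differences were -0.86 without T and -0.87 with T (SE 0.217 each).

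The largest negative CR minus WTR difference was that of Nitab4.5_0002654g0150. It stood at 3.23, 3.99 and 3.97 FPKM in CR, against 11.68, 11.59 and 12.77 FPKM in WTR. Its TCR values were 4.42, 7.30 and 5.54 FPKM, against 8.26, 9.74 and 13.06 FPKM in TWTR. CR and WTR were far apart for their spread and TCR and TWTR closer together, with log2 differences of -1.46 and -0.75 (SE 0.174 each). Nitab4.5_0001600g0060 showed the opposite imbalance. It was at 1.61, 3.13 and 0.48 FPKM in TCR, against 12.03, 7.89 and 7.69 FPKM in TWTR. In CR it was at 4.99, 2.77 and 3.50 FPKM, against 5.89, 5.63 and 5.52 FPKM in WTR. Its TCR minus TWTR difference of -1.99 (SE 0.315) was the lowest of all members, its CR minus WTR difference of -0.52 was just inside the threshold, and with a pseudocount of 5 the values were -1.08 with T and -0.29 without T.

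The 2 most abundant lower members differed in how tight their groups were. Nitab4.5_0000610g0020 had 147.96, 149.47 and 139.39 FPKM in TCR, against 205.73, 206.53 and 220.73 FPKM in TWTR. In CR it had 97.61, 106.38 and 102.13 FPKM, against 152.38, 139.05 and 147.46 FPKM in WTR. The values lay on 3 levels, with TCR overlapping WTR, CR below both and TWTR above both, and the log2 differences were -0.52 without T and -0.53 with T (SE 0.0549 each). Nitab4.5_0000082g0410, which also had the second largest negative CR minus WTR difference, was at 91.69, 88.22 and 93.10 FPKM in TCR, against 112.36, 224.18 and 109.01 FPKM in TWTR. Its CR values were 88.84, 38.74 and 33.30 FPKM, against 113.82, 99.09 and 111.03 FPKM in WTR. One library in each of CR and TWTR stood far from the other two, namely CR replicate 1 and TWTR replicate 2. The TCR minus TWTR difference of -0.62 (SE 0.360) was not called by limma. It came to -0.28 without TWTR replicate 2, so this model then falls outside the rule. CR minus WTR was -1.13 with all libraries and -1.56 without CR replicate 1. Without CR replicate 1 the TCR minus CR difference, 0.89 with all libraries, passes the limit of 1. Leaving out that library alone thus also takes the model outside the rule.

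The separation by code often held across the T prefix as well, which the rule favours without requiring it. In 80 of the 104 higher members all 6 CR and TCR libraries lay above all 6 WTR and TWTR libraries (2.26% of all models in range), and in 15 of the 19 lower members all 6 lay below (1.57%). The no-overlap condition, the size threshold and the limits on the differences with T all raise these counts. Nothing beyond the choice of members is therefore read from them. The group means of the higher members ran CR, TCR, WTR and TWTR from high to low in 62 models, CR, TCR, TWTR and WTR in 23, TCR, CR, TWTR and WTR in 13, and TCR, CR, WTR and TWTR in 5. In the one remaining member WTR was above TCR. Among the lower members the order was TWTR, WTR, TCR and CR in 8 models, WTR, TWTR, CR and TCR in 6, TWTR, WTR, CR and TCR in 4, and WTR, TWTR, TCR and CR in 1.

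**Figure D3:**
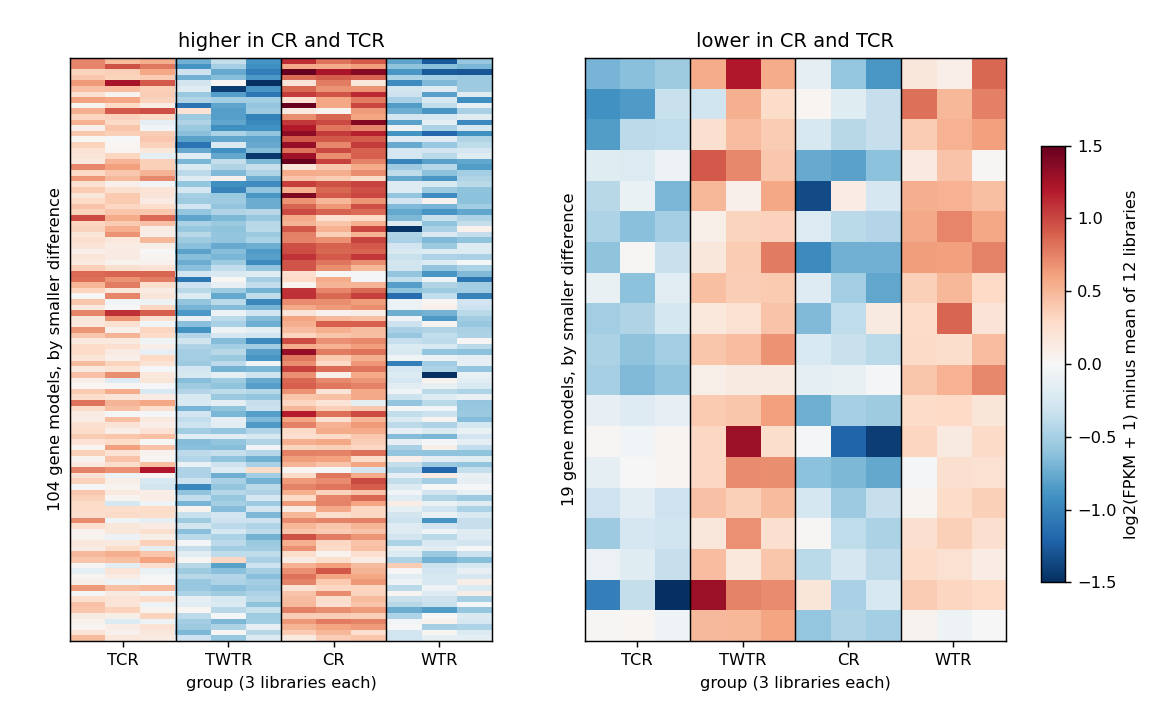
Each row is a gene model and each column a library, in the groups TCR, TWTR, CR and WTR; colour gives log2(FPKM + 1) minus the model's mean over 12 libraries, cut off at 1.5 and -1.5, with 104 higher members on the left and 19 lower members on the right, ordered by the smaller of both differences. On the left the CR columns are a deeper red than the TCR columns, and 62 of the 104 models have their lowest group mean in TWTR with WTR next and CR highest.

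The difference was smaller with T than without it in most higher members. TCR minus TWTR was smaller than CR minus WTR in 78 of 104, with a median ratio of 0.780 (quartiles 0.611 and 0.988) and a range of 0.360 to 2.13. Among lower members the sizes were balanced, with CR minus WTR larger in 10 of 19 and a median ratio of 0.985 (range 0.512 to 3.85). Both differences with T were smaller in size than both differences by code in 83 higher and 15 lower members, and in the other 21 and 4 at least one was as large or larger. The gap between the 2 differences, (TCR minus CR) minus (TWTR minus WTR), was under 0.2 in size in 36 higher and 11 lower members and at least 0.5 in size in 27 higher and 3 lower members. In the limma fit of all models this gap was called at a false discovery rate of 0.05 in 2 higher members with a positive value (11.5% of all models tested) and 21 with a negative value (17.8%), and in 1 and 2 of the lower members. The rule bounds this gap, so nothing is read from these counts. The name under which these models were grouped, a difference kept with T, fits the sign in all 123 by construction. The rule also bounds the sizes, with unequal limits on TWTR minus WTR and TCR minus CR. Over all models in range, 13.3% passed as higher in CR against WTR and 3.57% in TCR against TWTR. How closely the size was kept with T is therefore not read from these members.

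Levels with T were lower in CR-coded roots for most higher members. TCR minus CR was below 0 in 87 of 104 (median -0.41), beside 49.8% of all models in range, and TWTR minus WTR was below 0 in 67 of 104 (median -0.13), beside 45.5%. Both were below 0 in 62 members (28.1% of all models in range), both above 0 in 12, and the signs differed in 30. Among the 19 lower members TCR minus CR was above 0 in 10 (50.2% of all models in range; median 0.09) and TWTR minus WTR in 12 (54.5%; median 0.14). These differences use the libraries by which the members were chosen, so a high CR group favours both a large CR minus WTR and a negative TCR minus CR. Calls by limma at a false discovery rate of 0.05 for TCR minus CR numbered 6 higher (19.6% of all models tested) and 58 lower (22.1%) among the higher members, and 5 and 2 among the lower members. For TWTR minus WTR they numbered 7 higher (20.4%) and 30 lower (14.9%) among the higher members, and 4 and 2 among the lower members. No call in either contrast was made for 34 higher and 11 lower members (44.2% of all models tested).

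**Figure D4:**
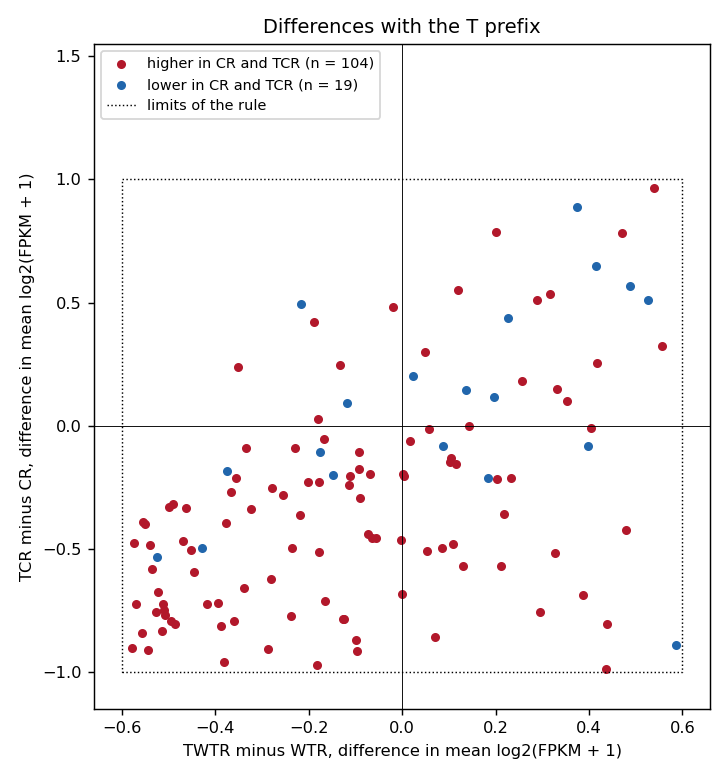
Each point is one of the 123 members; the horizontal axis is TWTR minus WTR and the vertical axis TCR minus CR, both as differences in mean log2(FPKM + 1), and the dotted box marks the limits of the rule. Of the 104 higher members (red), 87 lie below 0 on the vertical axis, and 62 of these also lie left of 0, while the 19 lower members (blue) are found on every side of the origin.

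The same fit called 102 of the 104 higher members in CR minus WTR (23.5% of 19929 models tested) and 95 in TCR minus TWTR (7.00%), 93 of them in both (2.84% called higher in both). Of the 19 lower members it called 18 in CR minus WTR (16.6%) and 16 in TCR minus TWTR (6.69%), 15 of them in both (1.45% called lower in both). The rule chose members on these contrasts, so these shares are given without being read as evidence. Spread within groups was somewhat wider among members than elsewhere. The median SD of log2(FPKM + 1) within a group was 0.134, 0.181, 0.126 and 0.163 for higher members in TCR, TWTR, CR and WTR, against 0.0838, 0.119, 0.111 and 0.0961 for all models in range, which lie at higher levels.

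The members took a small part of each library. The 104 higher members summed to 0.354% ± 0.00741 of the deposited FPKM in TCR, against 0.204% ± 0.0107 in TWTR, and to 0.478% ± 0.0215 in CR, against 0.217% ± 0.00425 in WTR (SD, n = 3 each). The 19 lower members summed to 0.0433% ± 0.000462 in TCR, against 0.0705% ± 0.00756 in TWTR, and to 0.0336% ± 0.00267 in CR, against 0.0587% ± 0.00163 in WTR (SD, n = 3 each). The median deviation of the higher members from their own group means lay between -0.06 (TWTR replicate 3) and 0.05 (CR replicate 1) on the log2 scale. For the lower members it lay between -0.10 (TWTR replicate 1) and 0.09 (CR replicate 1), and for all models in range between -0.01 and 0.01. In bulk roots, fewer cells of a type and less RNA per cell cannot be told apart.

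Each of the 12 libraries was left out in turn, the rule was applied to the other 11, and the left-out library was set against the 3 libraries of the paired group. On the higher side 102 to 121 models met the rule, and the left-out library lay beyond all 3 libraries of the other group in 91.6% to 99.0% of them, beside 27.6% to 41.5% of all models in range. For lower models 19 to 25 models met it, with 82.6% to 100% of left-out values beyond, beside 32.6% to 39.9% of all models. Over all models in range this share, on the side that a higher member takes, was 29.2%, 29.1% and 27.6% for TCR replicates 1 to 3, 32.9%, 34.8% and 32.8% for TWTR, 40.4%, 41.4% and 41.5% for CR and 39.4%, 40.7% and 40.1% for WTR. On the side a lower member takes it was 32.8%, 33.2% and 32.6% for TCR, 34.3%, 39.9% and 38.1% for TWTR, 38.3%, 33.9% and 35.7% for CR and 34.8%, 34.2% and 34.3% for WTR. The shares of the models that met the rule were above these in each of the 12 libraries. Those models were chosen for separation in the libraries kept, of both groups, and the models in range were not. The higher shares are therefore a description and no support for the difference. The median difference of a left-out CR or WTR library was 0.89 to 0.96 on the higher side, against 0.92 to 0.96 in the libraries kept, and that of a left-out TCR or TWTR library was 0.59 to 0.82, against 0.69 to 0.78. For lower models it was -0.82 to -0.53, against -0.87 to -0.66 in the libraries kept, and the left-out value was the smaller one in size for 10 of the 12 libraries. The 3 libraries of the paired group were used in the choice each time, so the left-out value is independent of the rule on one side of the comparison only.

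**Figure D5:**
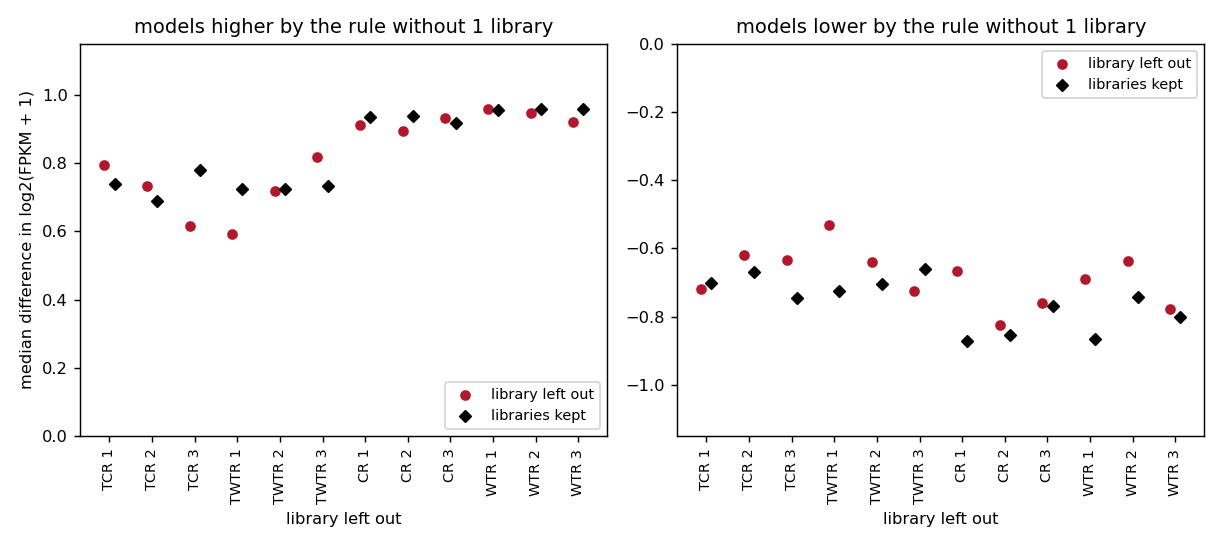
For each library left out (horizontal axis), the vertical axis gives the median difference in log2(FPKM + 1) among the models that met the rule without it: red points use the left-out library against the paired group, black diamonds the libraries kept, with models of the higher side on the left and of the lower side on the right. All left-out medians lie on the side of the kept ones, at 0.59 to 0.96 for higher and -0.82 to -0.53 for lower models.

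By identifier the members were scattered. The 104 higher members lay on 97 scaffolds and the 19 lower members on 19, and only scaffold 0000057 held members of both sides, 12 identifier steps apart. Of the 7 scaffolds with 2 higher members, 1 carried them under adjacent identifiers. These were Nitab4.5_0004010g0070, at 23.50, 18.81 and 19.91 FPKM in TCR, against 10.95, 11.74 and 9.96 FPKM in TWTR, and Nitab4.5_0004010g0080, at 10.45, 8.29 and 8.71 FPKM in TCR, against 5.95, 5.05 and 6.56 FPKM in TWTR. In CR the first had 16.48, 15.04 and 11.57 FPKM, against 8.25, 9.55 and 8.37 FPKM in WTR. The second had 10.10, 13.95 and 15.35 FPKM in CR, against 6.86, 5.57 and 5.19 FPKM in WTR. Within CR the first was highest in replicate 1 and the second in replicate 3, and the first was higher in TCR than in CR while the second was lower (log2 differences 0.51 and -0.46). Whether the 2 models are copies that share reads cannot be read from the table.

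Neighbours of members on their scaffolds were looked at as well. Models with the next identifier up or down on the scaffold numbered 150 for the higher members, of which 2 were members themselves, and 120 non-members were tested by limma. Of these 120, 37 (30.8%) were called higher in CR minus WTR and 16 (13.3%) lower, beside 23.5% and 16.6% of all models tested. In TCR minus TWTR 12 (10%) were called higher and 7 (5.83%) lower, beside 7.00% and 6.69%. Both contrasts were called higher in 7 of the 120 and lower in 0, beside 2.84% and 1.45% of all models tested. These 120 models had themselves failed the rule, which lowers the number that could be called in both. Among 27 tested neighbours of lower members, 9 (33.3%) were called lower in CR minus WTR and 3 (11.1%) higher, while 1 (3.70%) was called lower and 2 (7.41%) higher in TCR minus TWTR. The shares lean to the member's side in CR minus WTR by a few models out of 120 and 27, neighbouring models are not independent, and the difference from the background was not tested.

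The values next to each threshold were as follows. On the higher side the smallest difference inside the threshold of 0.5 was 0.501 and the largest outside, in a model that met all else, was 0.496. For lower models these were 0.515 and 0.495. For the size of TCR minus CR the values next to the limit were 0.990 inside and 1.06 outside on the higher side, and 0.890 and 1.02 on the lower side. For the size of TWTR minus WTR they were 0.578 and 0.611 on the higher side and 0.586 and 0.620 on the lower side. Next to the level threshold stood 12-library means of 5.07 and 4.86 FPKM on the higher side and 5.09 and 3.92 FPKM on the lower side.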

How the data were processed

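Per the labels' protocols, the authors extracted root RNA with TRIzol, sequenced enriched messenger RNA on a DNBSEQ-T7, cleaned reads with fastp, aligned them with STAR, a tool that the submitters' processing notes list too, assembled transcripts with StringTie2 and compared them with known genes by Cuffcompare. The genome build, annotation release, versions and the program behind the FPKM are not given in the sources used here. The deposited values are FPKM, per the file headers, with 2 identifiers and 12 library columns; each library column carries the title of 1 sample, written with a hyphen. FPKM divides by transcript length and library total, so a few abundant transcripts can shift all others.

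The members, lists and naming rule were chosen with earlier results of these data known. On each side the named models are the 2 largest by CR minus WTR, by TCR minus TWTR, by the smaller of both and by mean FPKM, and the longest run of adjacent identifiers. A model singled out otherwise was chosen after its values were seen. On the log2(FPKM + 1) scale, limma 3.58.1 in R 4.3.3 was fitted to the 19929 models averaging 1 FPKM or more (4 group means, trend and robust options, Benjamini-Hochberg adjustment, threshold 0.05). The fit supplied standard errors and calls. The fit was tested on simulated data with known changes by code and no differences with T. It recovered 49 of 67 changes of 1.5-fold in each contrast. At 2-fold it recovered 61 of 67 in CR minus WTR and 62 of 67 in TCR minus TWTR. Over the whole simulation these contrasts held 4 and 8 false calls. The deposited data do hold differences with T, so the simulated setting is unlike them. Depth ratios came from the commonest ratio between each library and CR replicate 1, in models at 0 in 4 or more libraries. Values under a low cut-off in either library were left out. Interval estimates from counts were not possible because depth is unknown. Alternatives were pseudocounts of 0.1 and 5, other level filters, TPM, median-of-ratios and quantile scaling, looser and stricter parts of the rule, other limma options, a replicate block, and leaving out each library.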

Additional observations from a re-analysis of the deposited data

Results flagged for a closer look

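In 4 named models the difference between CR and WTR and the difference between TCR and TWTR were unequal by a gap that the limma fit of all models called at a false discovery rate of 0.05. On the log2(FPKM + 1) scale this gap, the TCR minus TWTR difference less the CR minus WTR difference, was -1.43 (SE 0.271) for Nitab4.5_0000084g0380 and -1.24 (SE 0.122) for Nitab4.5_0003638g0010, both higher members with the larger difference between CR and WTR. Among lower members it was 0.71 (SE 0.246) for Nitab4.5_0002654g0150, with the larger difference between CR and WTR, and -1.48 (SE 0.446) for Nitab4.5_0001600g0060, with the larger difference between TCR and TWTR. These models were named for large single differences, which enter into this gap, and the rule bounds it, so the values and calls are a description and no test of a difference. Groups of 3 libraries are too small for a search for outlying samples.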

How the results depend on the processing

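Between 74 and 155 models met the higher side of the rule under pseudocounts of 0.1 and 5, a mean of at least 1 FPKM, no upper limit on the mean, the 3 scalings and overlap allowed. There were 163 with no filter on low values, 209 with no limits on TWTR minus WTR and TCR minus CR, and 8 with differences of at least 1. The 19 lower members became 48 with a mean of at least 1 FPKM, 56 with no filter, 29 with overlap allowed, 49 with no limits and 0 with differences of at least 1, and 13 to 26 under the other settings. The filters, limits and thresholds loosen or tighten the rule itself; for the pseudocounts and scalings the cause was not tested. Leaving out 1 library gave 102 to 121 higher and 19 to 25 lower models; 49 of the 104 and 11 of the 19 met the rule in every one of these 12 runs, and 77 and 18 met it under all 3 scalings. With a pseudocount of 5, 57 of the 104 and 12 of the 19 remained. Calls by limma in both contrasts ranged from 71 to 96 for higher and 13 to 16 for lower members over all settings. No paired design was shown: same-numbered libraries had residual correlations between -0.09 and 0.10, and the replicate block gave 88 and 15 calls. For the 14 named models 308 recomputed differences could change in size, and another 196 were fixed by construction. Of the 308, 18 moved by 1 SD or more, 12 of them with a pseudocount of 5. All 308 kept their sign. The rule allows no overlap in either pair, so pseudocounts and left-out libraries could not reverse a sign, and only the 3 scalings could. Absolute depth is unknown, which leaves the precision of low models unstated.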
